A study of Mus musculus with 8 samples.

Results

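The proteasome is the large protease that degrades proteins tagged with ubiquitin. Its core particle stacks rings of alpha subunits, which gate the entrance, around rings of beta subunits, some of which hold the cutting sites. A regulatory particle sits on the core: its base carries a ring of ATPases that unfold the substrate, and its lid removes the ubiquitin chain. The constitutive subunits are the form found in most cells, and the immunoproteasome subunits Psmb8, Psmb9 and Psmb10, which replace catalytic beta subunits, were set apart. The genes described here are those whose current symbol begins with Psma, Psmb, Psmc or Psmd followed by a number, without these 3. The rule found 36 genes on 47 probes, of 18883 named genes and 41174 probes on the array. They comprise 8 alpha subunits of the core, 8 beta subunits, 6 ATPases, 3 further base subunits, 8 lid subunits and 3 chaperones that assemble the base and carry Psmd numbers.

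The samples were mammary tumour cell lines established from FVB mice of the PyMT tumour model, and every sample had received 50 uM CPT (camptothecin, a topoisomerase I poison) over 36 h. The WTA line, of wild-type genotype, carried the LKO1 lentiviral vector with a hairpin against Snd1 (3 arrays) or the empty LKO1 vector (3 arrays) and was selected with puromycin. The KO2 line, of genotype MTDH-KO, carried wild-type Mtdh (LmPGK-mMtdh-ires2-GFP, 1 array) or Mtdh with the W391D change, described as deficient in binding Snd1 (1 array), and was sorted for GFP. Snd1 is a partner protein of Mtdh, and the design asked what its loss, or the loss of its binding to Mtdh, changes under the drug. Nothing in the labels tells separate cultures from repeat measurements, so p-values reflect array-to-array spread alone, which could be technical. No sample without the drug was analysed here.

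Each array compared the Cy5-labelled sample with a Cy3-labelled reference RNA mixed from 11 mouse cell lines, and every level below is the log2 ratio of sample to reference after normalization within the array. The median Cy5 signal was 158 to 363 per array over a background of 61 to 72, and 78.0% to 88.5% of probes were well above background; the number of arrays limits the precision. Snd1 itself, the target of the hairpin, had log2 ratios of -3.23, -3.33 and -3.44 in the knockdown, -2.49, -2.40 and -2.43 with the vector, and -1.92 and -1.98 in the rescue arrays. It lay 0.90 lower on the log2 scale than in the vector arrays (SE 0.06, limma adjusted p = 1.04e-05). All 5 epithelial markers (Krt8, Krt18, Epcam, Cdh1 and Cldn4) were well above background on all 8 arrays. So were all 6 fibroblast markers and 3 of the leukocyte markers. The cell marker lists differed between the groups that are compared below. Of the epithelial markers 4 were lower and 1 was higher in the knockdown, and their mean log2 ratio was 2.07 to 2.30 in the knockdown and 2.53 to 2.76 in the vector arrays. Of 6 fibroblast markers 5 were higher and 0 lower, with a mean log2 ratio of -2.76 to -2.65 against -4.10 to -4.09. Their rises were uneven, from 0.19 for Pdgfra to 2.72 for Postn. Of 4 leukocyte markers measured, 3 passed the filter and 1 was higher, with a mean of -1.60 to -1.56 against -1.74 to -1.68. Their part in the results was not tested.

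The promoters of 5 subunits are shown first, those of the 2 largest falls and the 3 largest rises among called subunits with a single promoter entry; Psmd3 and Psmd7 were not matched. Each is the stretch of 150 bases that ends at the base before the RefSeq gene start, read 5′ to 3′ on the gene's own strand in build GRCm38.p6. Capitals mark 3 motifs searched on both strands: CCAAT, TGACNNNGC (the core of the element bound by Nfe2l1 and Nfe2l2, which drive proteasome genes) and the palindrome bound by nuclear respiratory factor 1. The positions are chr7:114276117-114276266 on the minus strand for Psma1, chr13:14613092-14613241 on the plus strand for Psma2, chr11:97703284-97703433 on the plus strand for Psmb3, chr2:34870963-34871112 on the minus strand for Psmd5 and chr5:123228040-123228189 on the plus strand for Psmd9.
Psma1: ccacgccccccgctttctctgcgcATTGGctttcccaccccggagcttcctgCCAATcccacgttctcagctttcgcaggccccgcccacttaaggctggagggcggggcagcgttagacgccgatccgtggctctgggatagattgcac
Psma2: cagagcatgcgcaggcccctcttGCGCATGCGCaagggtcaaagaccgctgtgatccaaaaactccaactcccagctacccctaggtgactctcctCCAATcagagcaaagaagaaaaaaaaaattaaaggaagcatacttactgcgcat
Psmb3: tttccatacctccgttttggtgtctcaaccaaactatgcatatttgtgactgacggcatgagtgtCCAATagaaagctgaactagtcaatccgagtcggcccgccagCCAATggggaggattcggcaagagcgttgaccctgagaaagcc
Psmd5: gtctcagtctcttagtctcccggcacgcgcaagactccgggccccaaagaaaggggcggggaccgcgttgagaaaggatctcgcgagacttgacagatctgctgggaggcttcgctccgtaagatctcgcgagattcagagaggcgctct
Psmd9: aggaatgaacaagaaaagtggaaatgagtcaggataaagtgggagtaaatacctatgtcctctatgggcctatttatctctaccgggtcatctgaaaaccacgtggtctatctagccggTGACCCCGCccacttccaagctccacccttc
Psma1 and Psma2, which fell, held CCAAT and no TGACNNNGC in these letters. Psma2 also held the nuclear respiratory factor 1 palindrome, 127 bases before the start. Of those that rose, Psmd9 held TGACNNNGC 31 bases before the start, Psmb3 held CCAAT at 85 and 43 bases, and Psmd5 held none of the motifs.

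Promoter windows running from 250 bases before to 50 after the start were matched for 29 of the 36 genes. TGACNNNGC lay in 5 of the 29 (17.2%), against 13.99% of 27025 genes of the same table, and the 5 were Psmb5, Psmb6, Psmc6, Psmd12 and Psmd9. It lay in 0 of 7 alpha subunits, in 3 of 11 subunits that rose and in 0 of 5 that fell. CCAAT lay in 12 of 29 (41.4%) against 41.1% of all genes, and in 5 of the 7 alpha subunits. It lay in 3 of 11 subunits that rose and in 4 of 5 that fell. The nuclear respiratory factor 1 palindrome lay in 6 of 29 (20.7%) against 5.19%. It lay in 3 of 7 alpha subunits, in 1 of 11 that rose and in 2 of 5 that fell. These counts are small, and whether a motif goes with direction was not tested. A match describes the letters of the window and does not show that a factor binds there.

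In the knockdown, 14 of 36 subunits rose, 6 fell and 16 did not pass the test at an adjusted p under 0.05 (limma, adjusted over all 25673 features tested). Of all features tested 23.7% were higher, 21.1% were lower and 44.8% were called in either direction, beside 38.9%, 16.7% and 55.6% of the subunits. All 36 passed the filter on dim probes, each well above background on all 6 arrays. The median log2 fold change over the subunits was 0.03, beside 0.02 over all features, and the median size without regard to sign was 0.15 beside 0.14. These counts depend on the normalization: 8 subunits rose and 8 fell under median centring, and 6 rose and 2 fell with the Cy5 channel alone, and the subunits' median was -0.03 under either. Of all features, 18.8% were higher and 24.1% lower under median centring, and 14.1% and 16.2% with the Cy5 channel alone. Calls went both ways under each of these settings. With the main normalization the shifts were mixed in direction: 20 subunits lay above 0 and 16 below. Only Psmb3 and Psmd3 rose by 1.5-fold or more, which 6.31% of all features did, and 0 subunits fell by as much, beside 5.82%. The knockdown and vector arrays did not overlap for 27 subunits (75%), 16 of them higher and 11 lower, beside 53.2% of all features. Over the 36 subunits, 32 had the same sign on both slides that held knockdown and vector arrays, among them all 20 called. The first of these slides held only the first array of each group, and the second slide held the others. The calls were made from these same arrays, so this agreement is not a separate test of them.

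**Figure D1:**
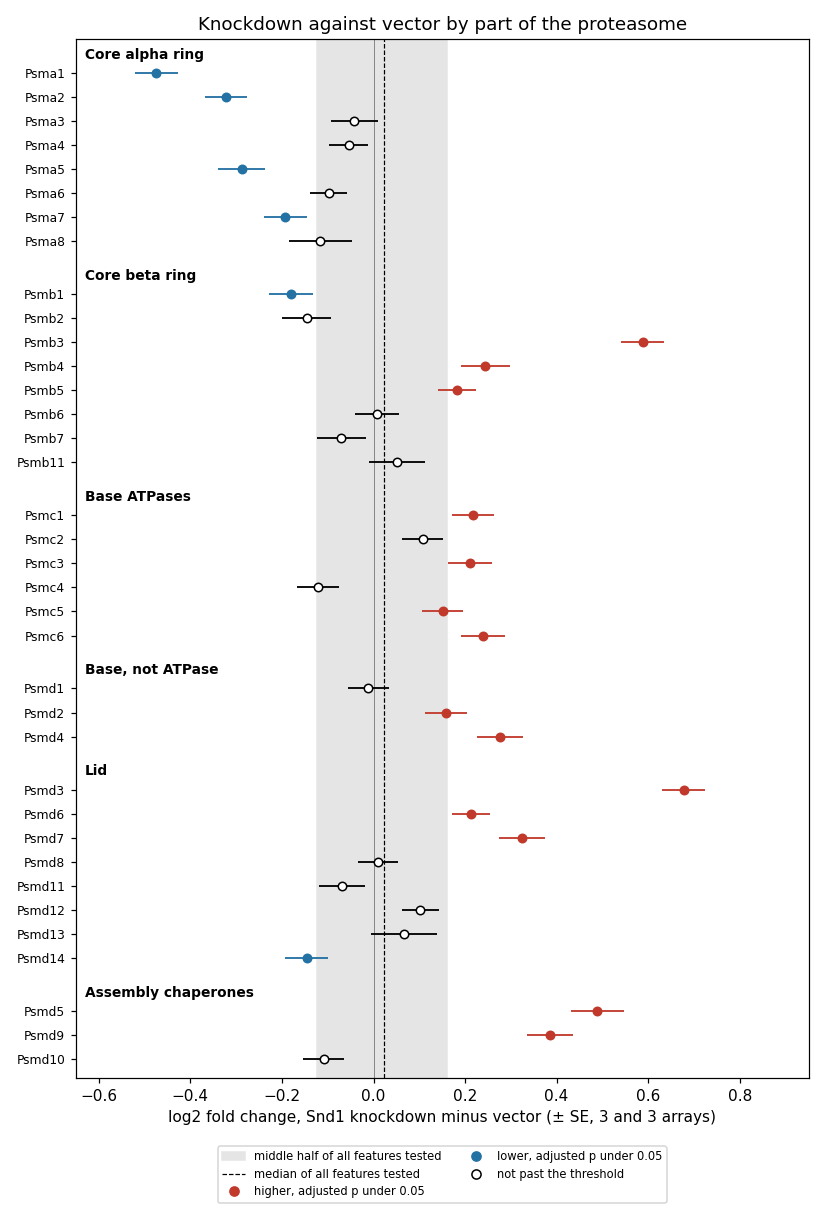
Log2 fold change of knockdown over vector (x axis, ± SE, 3 and 3 arrays) for each of the 36 subunits, grouped by their place in the proteasome; filled points passed an adjusted p of 0.05. All 8 alpha subunits lie below 0, and the ATPases, with the exception of Psmc4 at -0.12, lie above it; the grey band spans the lower to the upper quartile of all features tested, -0.12 to 0.16.

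All 8 alpha subunits of the core lay below 0, with a median log2 fold change of -0.15. Of them 4 fell (50%), 0 rose and 4 did not pass the test, where 21.1% of all features were lower and 23.7% higher. The first slide gave a median of -0.10 and the second -0.20. It stayed between -0.20 and -0.12 under each normalization, filter, block and left-out array that was tried, while the number that fell was 3 under median centring and 1 with the Cy5 channel alone. Psma1 had log2 ratios of 0.26, 0.15 and 0.17 in the knockdown arrays, 0.69, 0.67 and 0.64 in the vector arrays, and 0.36 and 0.27 in the wild-type and W391D rescue arrays. Its knockdown values all lay below its vector values. It fell by 0.47 on the log2 scale (SE 0.05, adjusted p = 6.96e-05), the largest fall among the subunits. Psma2 had log2 ratios of -0.01, -0.10 and -0.06 in the knockdown, 0.22, 0.27 and 0.30 with the vector, and 0.41 and 0.27 in the rescue arrays. These groups did not overlap either, and Psma2 fell by 0.32 (SE 0.05, adjusted p = 6.29e-04). Its call was lost when the Cy5 channel was read without the reference. Psma5 and Psma7, like Psma1 and Psma2 parts of the ring that gates the core, fell, with log2 fold changes of -0.29 (adjusted p = 0.00205) and -0.19 (adjusted p = 0.0102); neither was called with the Cy5 channel alone, nor Psma7 under median centring. Psma3, Psma4 and Psma6 had log2 fold changes of -0.04, -0.05 and -0.10 and did not pass the test.

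Psma8 is the alpha subunit of the testis proteasome, where it takes the place of Psma7. Its median Cy5 signal of 190 over a background of 68 put it near the dim end. It had log2 ratios of 0.31, 0.08 and 0.31 in the knockdown, 0.32, 0.37 and 0.36 with the vector, and 0.12 and 0.14 in the rescue arrays. Only the second knockdown array stood clearly below the vector arrays, and the log2 fold change of -0.12 (SE 0.07, adjusted p = 0.217) did not pass the test.

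The beta subunits of the core went both ways: 3 rose (37.5%), 1 fell (12.5%) and 4 did not pass the test, beside 23.7% and 21.1% of all features. Their median log2 fold change was 0.03, which became -0.01 without the third knockdown array. Psmb3, a beta subunit without a cutting site, had log2 ratios of 0.78, 0.85 and 0.88 in the knockdown, 0.23, 0.23 and 0.29 with the vector, and 0.16 and 0.24 in the rescue arrays. The 3 knockdown arrays stood above all others. Psmb3 rose by 0.59 on the log2 scale (1.503-fold, SE 0.05, adjusted p = 2.33e-05), and a second probe gave 0.64. Psmb4, also without a cutting site, had log2 ratios of 0.83, 0.65 and 0.74 in the knockdown, 0.48, 0.52 and 0.49 with the vector, and 0.22 and 0.14 in the rescue arrays. It rose by 0.24 (SE 0.05, adjusted p = 0.00664) without overlap, a call lost with the Cy5 channel alone.

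Among the beta subunits that cut, Psmb5, which holds the chymotrypsin-like site, rose by 0.18 (SE 0.04, adjusted p = 0.00729). Its call was lost under median centring and with the Cy5 channel alone. Psmb6 and Psmb7, with the caspase-like and trypsin-like sites, had log2 fold changes of 0.01 and -0.07 and did not pass the test. Psmb1, a beta subunit without a cutting site, had log2 ratios of -0.62, -0.57 and -0.66 in the knockdown, -0.48, -0.43 and -0.39 with the vector, and -0.95 and -0.98 in the rescue arrays. It fell by 0.18 (SE 0.05, adjusted p = 0.0156), and the call was lost in 7 of 22 alternative settings, among them those without the third knockdown array and without the third vector array. Psmb2, of the same ring, had a log2 fold change of -0.15 (adjusted p = 0.0587), and was called lower with the replicate number as a block. Psmb11, the beta subunit of the thymus proteasome, was dim (median Cy5 signal of 259 over 67.5). It had log2 ratios of 0.21, 0.19 and 0.33 in the knockdown, 0.26, 0.22 and 0.09 with the vector, and 0.14 and 0.10 in the rescue arrays, which overlapped, with a log2 fold change of 0.05 (adjusted p = 0.551).

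The immunoproteasome subunits were lower in the knockdown. Psmb8, Psmb9 and Psmb10 fell, with log2 fold changes of -1.56 (SE 0.09, adjusted p = 3.85e-06), -0.65 (SE 0.08, adjusted p = 3.55e-04) and -1.67 (SE 0.07, adjusted p = 5.82e-07). Psmb5, Psmb6 and Psmb7, the constitutive subunits they replace, had 0.18, 0.01 and -0.07.

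**Figure D2:**
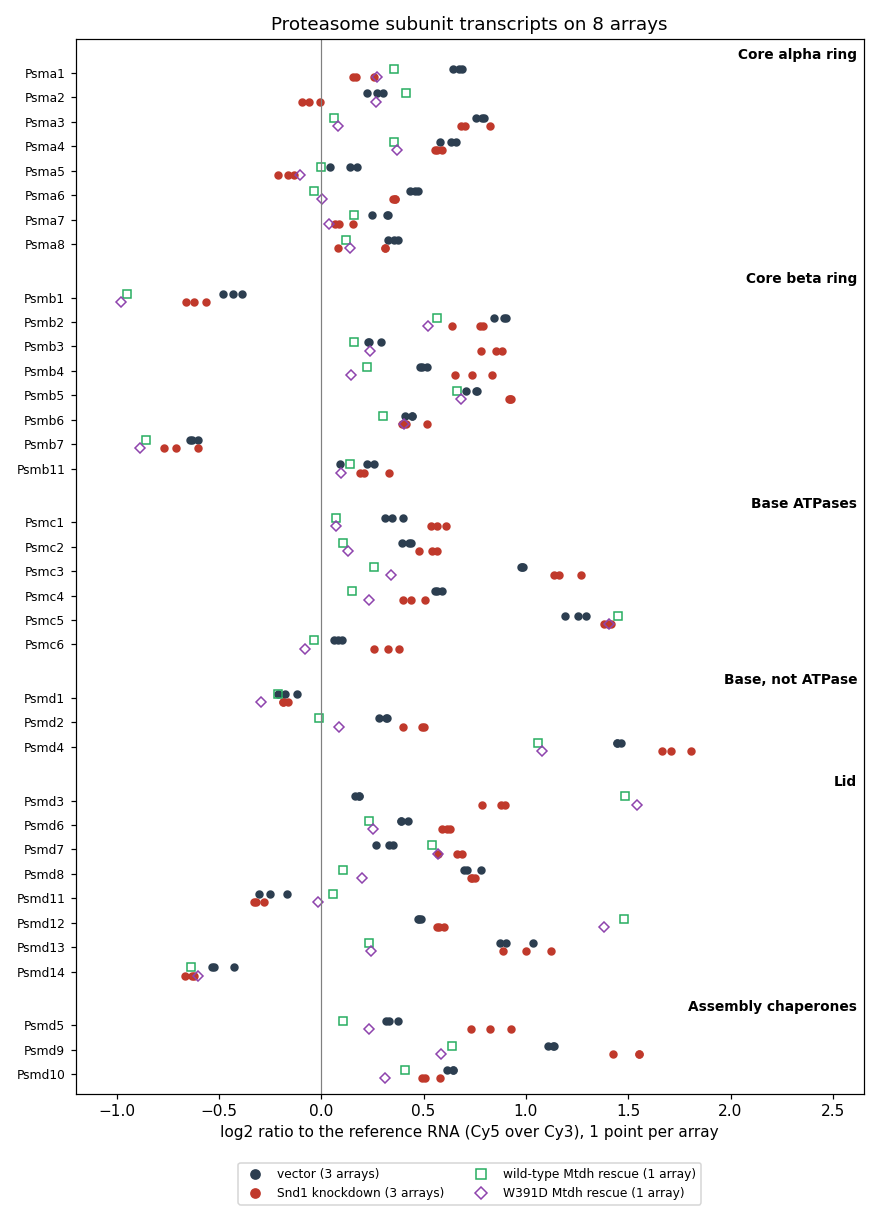
Log2 ratio of sample to reference RNA (x axis) on each of the 8 arrays for the 36 subunits: knockdown and vector as filled circles (3 arrays each), the rescues as open symbols (1 array each). The knockdown circles of Psmb3, from 0.78 to 0.88, lie to the right of its vector circles, from 0.23 to 0.29; those of Psma1, from 0.15 to 0.26, lie to the left of 0.64 to 0.69.

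The ATPases of the base leaned upward: 4 of 6 rose (66.7%) and 0 fell, beside 23.7% and 21.1% of all features. The median log2 fold change was 0.18. Taken apart, the first slide, with a single array of each group, gave 0.26 and the second gave 0.14. The median stayed above 0, from 0.09 to 0.19, under every alternative, but the number that rose was 1 under median centring, 2 with scaling between arrays and 0 with the Cy5 channel alone, and 1 fell under median centring and with the Cy5 channel alone. Psmc6 had log2 ratios of 0.38, 0.26 and 0.33 in the knockdown, 0.08, 0.10 and 0.06 with the vector, and -0.03 and -0.08 in the rescue arrays. It rose by 0.24 (SE 0.05, adjusted p = 0.00353) with no overlap. Psmc1 had log2 ratios of 0.61, 0.56 and 0.54 in the knockdown, 0.31, 0.35 and 0.40 with the vector, and 0.07 in each rescue array. It rose by 0.22 (SE 0.05, adjusted p = 0.00497), also with no overlap. Its call was lost under median centring and with the Cy5 channel alone. Psmc3 and Psmc5 rose by 0.21 (adjusted p = 0.00797) and 0.15 (adjusted p = 0.0253); the call of Psmc5 was lost in 10 settings, including all single-array omissions but that of the second vector array. Psmc2 (0.11, adjusted p = 0.0895) and Psmc4 (-0.12, adjusted p = 0.0651) did not pass the test; Psmc4 was called lower in 10 of 22 settings, and its second probe gave -0.17.

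Of the 3 base subunits without ATPase activity, Psmd4 and Psmd2 rose, as did 23.7% of all features. Psmd4, a receptor for ubiquitin chains, had log2 ratios of 1.81, 1.71 and 1.66 in the knockdown, 1.44, 1.46 and 1.45 with the vector, and 1.06 and 1.08 in the rescue arrays. The knockdown arrays were the highest, and it rose by 0.28 (SE 0.05, adjusted p = 0.00224), a call lost with scaling between arrays. Psmd2, the scaffold on which shuttle proteins dock, had log2 ratios of 0.40, 0.50 and 0.49 in the knockdown, 0.28, 0.32 and 0.32 with the vector, and -0.01 and 0.09 in the rescue arrays. It rose by 0.16 (SE 0.05, adjusted p = 0.0243) and lost the call in 8 settings, including each single-array omission but that of the first knockdown array. Psmd1, the base's other scaffold, had a log2 fold change of -0.01 (adjusted p = 0.867).

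In the lid, 3 of 8 subunits rose (37.5%), 1 fell (12.5%) and 4 did not pass the test, beside 23.7% and 21.1% of all features. The median log2 fold change was 0.08, and it was 0.003 under median centring and 0.01 with the Cy5 channel alone. Over the lid and the base without the ATPases 5 of 11 rose (45.5%) and 1 fell (9.09%), with a median of 0.10. Psmd3, a structural subunit of the lid, had log2 ratios of 0.78, 0.88 and 0.90 in the knockdown, 0.18, 0.16 and 0.18 with the vector, and 1.49 and 1.54 in the rescue arrays. The knockdown arrays lay above the vector arrays and below both rescue arrays. Psmd3 rose by 0.68 (1.599-fold, SE 0.05, adjusted p = 1.00e-05), the largest change among the subunits. Psmd7, which pairs with the deubiquitinase Psmd14, had log2 ratios of 0.57, 0.66 and 0.69 in the knockdown, 0.26, 0.33 and 0.35 with the vector, and 0.54 and 0.57 in the rescue arrays. It rose by 0.33 (SE 0.05, adjusted p = 9.47e-04), and the other probe gave 0.31. Psmd14, the enzyme that removes ubiquitin chains, had log2 ratios of -0.63, -0.67 and -0.62 in the knockdown, -0.43, -0.52 and -0.54 with the vector, and -0.64 and -0.60 in the rescue arrays. The knockdown values were the lower ones, and it fell by 0.15 (SE 0.05, adjusted p = 0.0356). This call rested on the choice of arrays and probes: it was lost when any single array was left out, in 14 of 22 settings in all, and the second probe gave -0.02. Psmd6 rose by 0.21 (adjusted p = 0.00308), a call lost under median centring and with the Cy5 channel alone, and Psmd8, Psmd11, Psmd12 and Psmd13 had log2 fold changes of 0.01, -0.07, 0.10 and 0.07 and did not pass the test.

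Of the 3 assembly chaperones, which escort the ATPases into the base, 2 rose, as did 23.7% of all features. Psmd5 had log2 ratios of 0.73, 0.83 and 0.93 in the knockdown, 0.31, 0.33 and 0.37 with the vector, and 0.11 and 0.24 in the rescue arrays. Psmd5 rose by 0.49 (SE 0.06, adjusted p = 2.09e-04) with no overlap. Psmd9 had log2 ratios of 1.43, 1.55 and 1.55 in the knockdown, 1.11, 1.13 and 1.14 with the vector, and 0.64 and 0.59 in the rescue arrays. The knockdown arrays were again the highest, and Psmd9 rose by 0.38 (SE 0.05, adjusted p = 3.58e-04), with 0.56 from a second probe. Psmd10, also known as gankyrin, had a log2 fold change of -0.11 (adjusted p = 0.0806). For the 16 subunits that did not pass the test, the 95% intervals, not adjusted for the number of genes, lay between -0.27 and 0.23.

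**Figure D3:**
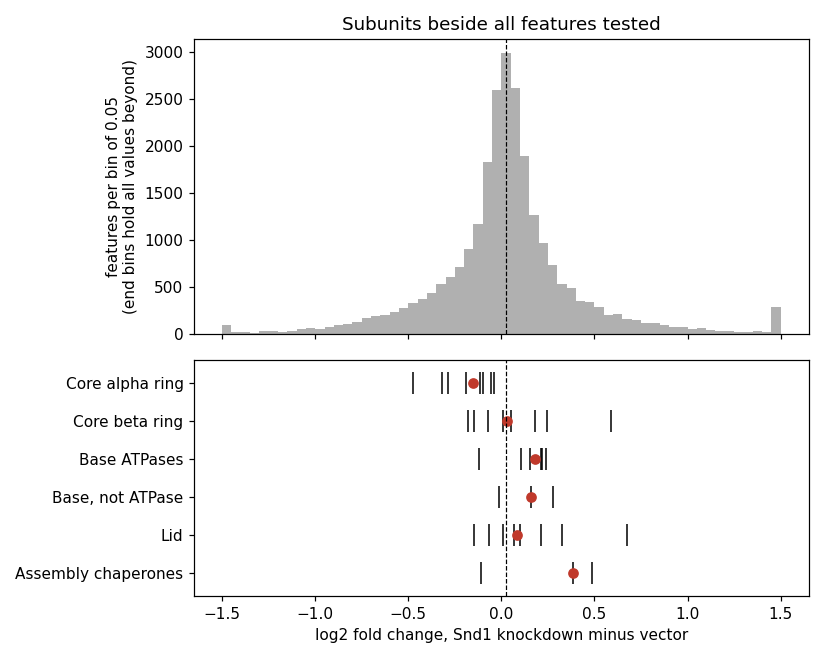
The upper panel counts all 25673 features by log2 fold change of knockdown over vector (x axis), and the lower panel marks each subunit by class with a tick and the class median with a red point. The alpha ring's median lies at -0.15 and that of the ATPases at 0.18, on either side of the dashed line at the median of all features, 0.02.

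The genes that work with the proteasome were taken from a list of 38 activators, chaperones, bound enzymes, shuttles, regulators and ubiquitin genes. Of the 36 with a named probe 10 rose (27.8%), 12 fell (33.3%) and 14 did not pass the test, with a median log2 fold change of 0.03. Of all features tested 23.7% were higher and 21.1% lower. The counts by role below are of short lists and stand beside these same shares. Of 5 activators and inhibitors 1 rose and 3 fell. Psme2 and Psme1, the interferon-inducible cap that opens the core, had log2 fold changes of -1.22 (SE 0.07, adjusted p = 2.91e-06) and -1.07 (SE 0.06, adjusted p = 4.10e-06), and both fell. Psme2 had log2 ratios of -0.25, -0.26 and -0.29 in the knockdown, 0.82, 1.08 and 0.95 with the vector, and 1.46 and 1.36 in the rescue arrays. Psme1 had log2 ratios of -0.97, -1.02 and -1.06 in the knockdown, -0.03, 0.17 and 0.01 with the vector, and 0.67 and 0.49 in the rescue arrays. For both genes the knockdown was lowest and the rescue arrays were highest.

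Among 7 further subunits and bound enzymes 1 rose and 5 fell. Adrm1, a ubiquitin receptor that docks on Psmd1, had log2 ratios of 1.70, 1.63 and 1.64 in the knockdown, 0.80, 0.80 and 0.79 with the vector, and 0.40 and 0.39 in the rescue arrays. It rose by 0.86 (SE 0.04), and a second probe gave 0.63. Sem1, a small lid subunit, had log2 ratios of -0.23, -0.15 and -0.18 in the knockdown, 0.33, 0.49 and 0.44 with the vector, and 0.77 and 0.53 in the rescue arrays, and fell by 0.61 (SE 0.05). Ecpas, an adaptor that tethers core and regulatory particle, had log2 ratios of -1.75, -1.76 and -1.78 in the knockdown, -1.26, -1.22 and -1.27 with the vector, and -0.81 and -0.86 in the rescue arrays. Ecpas fell by 0.51 (SE 0.04), and its second probe gave -0.32, a difference over 1.5 times in size. The adjusted p-values of these 3 genes were 1.70e-06, 3.84e-05 and 2.13e-05.

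Of 6 genes listed under the transcription factor axis 5 rose and 0 fell. The list is mixed and not all its members are transcription factors: it holds Nfe2l1, Nfe2l2, Ngly1, Akirin2, Zfand5 and Zfand2a. Akirin2, at 0.01, was the gene not called. Nfe2l1, which drives proteasome genes when proteasome activity is short, had log2 ratios of 0.41, 0.51 and 0.50 in the knockdown, -0.23, -0.14 and -0.14 with the vector, and 0.48 and 0.43 in the rescue arrays. It rose by 0.64 (SE 0.05, adjusted p = 1.89e-05), to about the level of the rescue arrays. Zfand2a, an arsenite-inducible protein that associates with the proteasome, had log2 ratios of 3.69, 3.69 and 3.70 in the knockdown, 2.92, 2.81 and 2.80 with the vector, and 2.94 and 3.07 in the rescue arrays, and rose by 0.85 (SE 0.05, adjusted p = 3.24e-06). For Ngly1, another of the 5 that rose, the brightest probe gave 0.16 and the other -0.02. Of 8 shuttle and segregase genes 3 rose and 2 fell. The rises of Ubqln1 (0.19) and Ufd1 (0.23) rest on their brightest probes, since the other probes gave -0.02 and -0.23 for Ubqln1 and -0.0029 for Ufd1. Of 5 core assembly chaperones 0 rose and 2 fell, and of 5 ubiquitin genes 0 were called either way. The count for the ubiquitin genes rests on the brightest probes: for Uba6 that probe gave 0.12 and the others 0.41 and 0.06.

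**Figure D4:**
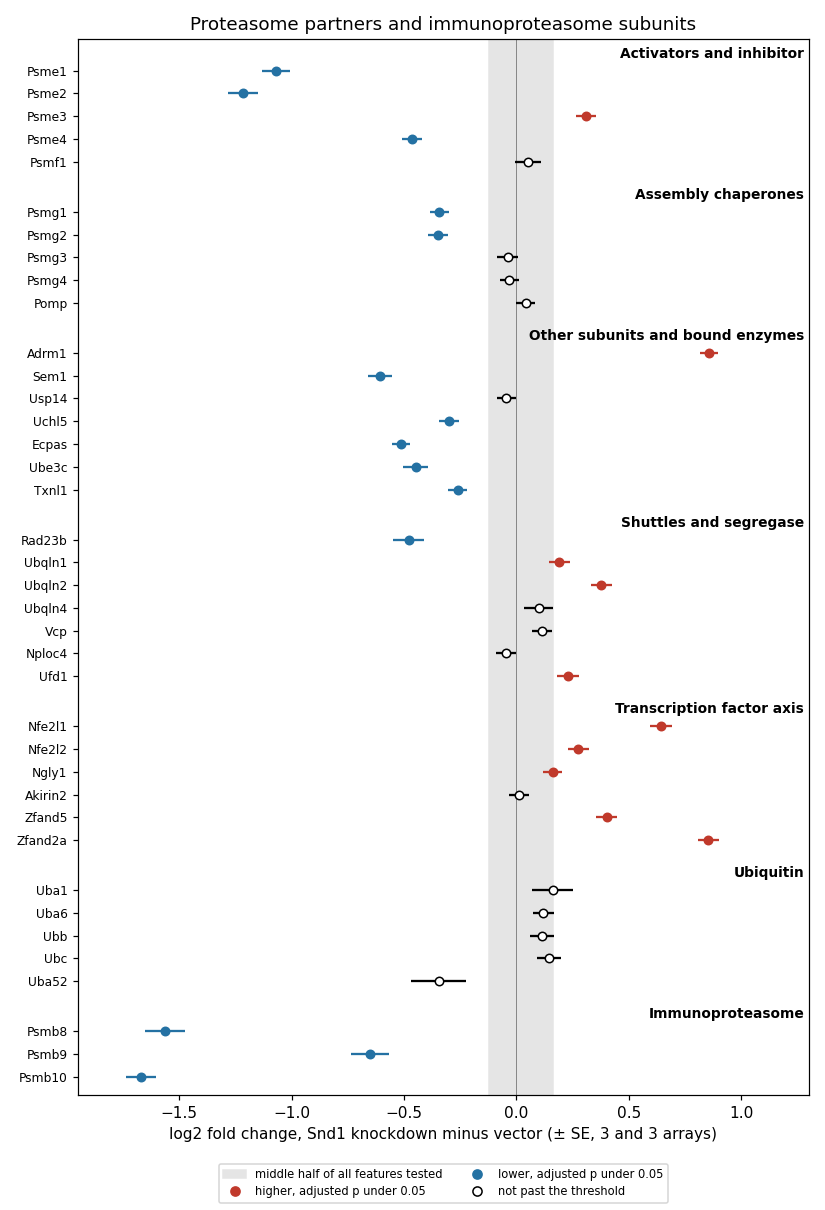
Log2 fold change of knockdown over vector (x axis, ± SE, 3 and 3 arrays) for measured partner genes by role and for the 3 immunoproteasome subunits; filled points passed an adjusted p of 0.05. Psme2, Psmb8 and Psmb10 reach -1.22, -1.56 and -1.67, farther from 0 than any of the 36 constitutive subunits, whose range was -0.47 to 0.68.

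Psmb3 and Psmd3 lie on chromosome 11, and the genes around them were examined after these values had been seen. Of the 20 nearest tested genes around Psmb3 in RefSeq gene order, 11 were higher and 3 lower in the knockdown, with a median log2 fold change of 0.28; 1.04% of genes had a higher neighbour median. Around Psmd3, 11 of 20 were higher and 2 lower, with a median of 0.15, which 5.997% of genes exceeded. Of the 27 tested genes that lie between them 16 were higher and 4 lower, with a median of 0.20. These include the facing neighbours of both genes, already counted above, so the 3 counts are not separate. Over the 1396 tested genes of chromosome 11 the median was 0.03, with 444 higher and 335 lower. The genes around Psma1 had a median of -0.13, with 1 higher and 5 lower. Around other subunits that rose the neighbours went either way, with medians of -0.05 for Psmd7, -0.08 for Psmc1 and 0.07 for Psmd9. The 20 genes around Psmd1 had a median of 0.25, with 11 higher and 1 lower, although Psmd1 itself was at -0.01.

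**Figure D5:**
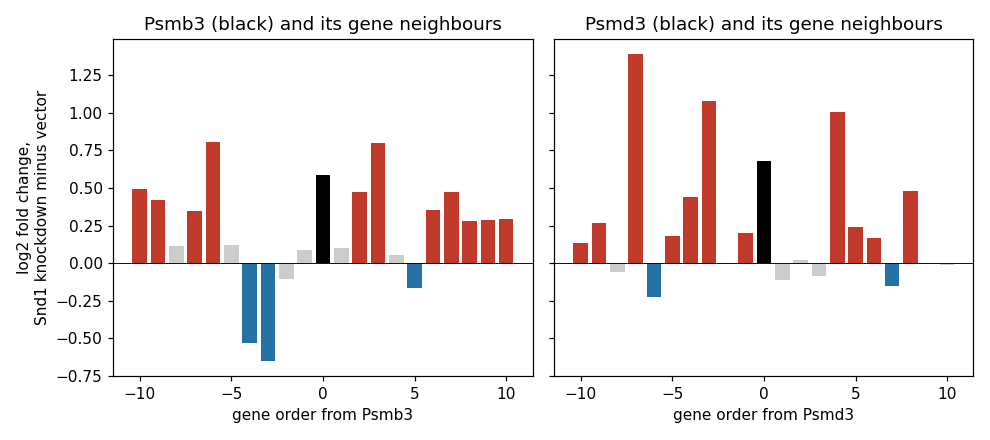
Log2 fold change of knockdown over vector (y axis) for Psmb3 and Psmd3 (black) and the 10 tested genes on each side in gene order (x axis); red and blue bars were called higher and lower, grey bars were not called. Most called neighbours stand above 0, 11 of 14 around Psmb3 and 11 of 13 around Psmd3.

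The rescue arrays, with 1 array a group and no test, differed little from each other. They lay on different slides, so the W391D change and the slide cannot be told apart. The W391D array minus the wild-type array had a median of 0.01 over the subunits, beside -6.15e-04 over the 27019 features measured, and ranged from -0.14 for Psma2 to 0.13 for Psmd5. Of the subunits 19 were higher and 17 lower with W391D, and 0 differed by 1.5-fold, beside 0.0814% of features that were higher and 0.0851% that were lower by as much. Against the vector arrays of the other line, both rescue arrays lay below all 3 vector values for 27 subunits and above them for 5: Psmc5, Psmd3, Psmd7, Psmd11 and Psmd12. Of the 25663 tested features with values on all 5 arrays 28% lay below and 34.4% above. Psmd12, a lid subunit, stood at 1.48 and 1.38 in the rescue arrays against 0.49, 0.47 and 0.48 with the vector and 0.57, 0.58 and 0.60 in the knockdown. The cell line, the vector, the selection and the slide differ with this comparison and cannot be told apart from it.

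Against the reference RNA, 31 of the 36 subunits had a vector mean above 0, with a median of 0.41 and a range from -0.62 for Psmb7 to 1.45 for Psmd4. This level depends on the normalization: with arrays centred on their median and no loess, the median over subunits was 1.44 to 1.60 in the vector arrays.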

How the data were processed

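RNA of 8 samples was measured on 2-colour Agilent arrays, Cy5 for the sample and Cy3 for the reference, with no dye swap. Per the file headers, the deposited intensity values are median spot signals, not normalized, from Agilent Feature Extraction 11.0.1.1, while the submitters' processing notes name 9.5.3.1. Per the file headers, the log10 ratios are that software's dye-normalized Cy5 over Cy3. The authors' deposited value table holds log2 ratios of the same direction, uncentred (column medians 0.026 to 0.146), matching each array's log10 ratio after conversion with r of 0.988 to 1.

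Signals were corrected with normexp (offset 50) and loess within arrays in limma 3.58.1 (R 4.3.3). Spots that were controls or flagged did not enter, and 0 spots were saturated. The files hold no gene name column, so accessions were matched to a RefSeq table (GRCm38.p6; the headers name another build), which gave 27668 probes a symbol. The brightest probe stood for a gene. The test covered the 25673 features whose Cy5 signal was well above background in 3 or more of the 6 arrays, using lmFit and eBayes and Benjamini-Hochberg adjustment. Fold changes compare knockdown with vector; log2 levels of different probes were not compared in tests.

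The members, the lists and the alternatives were chosen with earlier results of these data known. Values on each array are given for the called subunits with the largest changes in each class, up to 2 in each direction, for Psma8 and Psmb11, and for up to 8 called partner genes with the largest changes; the neighbours were added later, and the values of 1 such partner gene are not reported here. Knockdown and vector arrays of the same number shared a slide, and the correlation of their deviations was 0.597, 0.325 and 0.338; an alternative therefore treats equal numbers as pairs. Alternatives covered background correction, normalization, the deposited ratios, filters, probe choice, blocks, array weights, thresholds and left-out arrays.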

Additional observations from a re-analysis of the deposited data

How the results depend on the processing

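Of the 20 subunit calls, 6 held under all 22 alternatives (Psma1, Psmb3, Psmd3, Psmd7, Psmd5 and Psmd9) and 14 were lost under at least 1; 0 called subunits turned sign, and 6 of 16 uncalled ones gained a call somewhere. Under median centring 8 subunits were higher and 8 lower, the median subunit difference, knockdown minus vector, was -0.0332, and the median subunit difference, W391D minus wild-type rescue, was -0.0878. Over all features 4819 were higher and 6193 lower under that setting. With the Cy5 channel alone 6 were higher and 2 lower, with medians of -0.0349 and 0.0509, and over all features 3622 were higher and 4147 lower, against 6074 and 5423. With every probe as its own feature the median was 0.0590. The number of lower subunits was 3 at an adjusted p under 0.01 and 10 under 0.1. Leaving out single arrays gave 12 to 14 higher, 4 to 6 lower and medians of 0.00534 to 0.0596; the lowest came without the third knockdown array and the highest without the first vector array. With the replicate number as a block, which pairs the arrays, 14 were higher and 7 lower, with a median of 0.03; Psmb2 was the call gained. The causes were not tested. Signal over background limits Psma8 and Psmb11.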
